A study of Mus musculus with 32 samples.

Results

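Genes of the activating receptors of myeloid cells and of the signalling below them were followed in mouse frontal cortex across both genotypes and all input amounts. The group was chosen by symbol and holds 10 of the 33000 genes in the count table, Trem2, Tyrobp, Fcer1g, Fcgr3, Cd68, Cd14, Ptprc, Lcp2, Itgam and Cd72. Each symbol matched a single row. At 50 ng of input RNA all 10 had a higher mean in GFAP-IL6 than in wild-type (WT) cortex, and 5 passed the thresholds for a called gene (Fcer1g, Ptprc, Lcp2, Itgam and Cd72). The same thresholds called 0.28% of the 11773 genes tested. Leaving out a library gave 1 to 8 called genes of the 10, and Itgam was called in each such fit.

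The samples were 32 libraries of frontal cortex total RNA from C57BL/6 mice aged 3 months, made by 3'Pool-seq, in which each sample receives its index in the oligo-dT reverse transcription primer and samples are pooled before amplification. One genotype was WT. The other was homozygous for GFAP-IL6, a transgene that places Il6, the gene of the cytokine interleukin 6, under the promoter of the astrocyte gene Gfap. Each genotype had 4 libraries at each of 4 amounts of total RNA per reverse transcription reaction (50, 10, 1 and 0.5 ng), and the same replicate numbers recur at every amount. The labels do not say that replicates are separate animals, so the p-values measure the spread between these libraries, which may be technical.

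Myeloid cells such as microglia, the resident macrophages of the brain, read their surroundings through receptors that mostly lack a signalling tail of their own. These receptors pair with the small adaptors Tyrobp or Fcer1g, which carry a tyrosine motif called an ITAM. Once the motif is phosphorylated by kinases of the Src family, the kinase Syk docks on it and scaffolds such as Lcp2 carry the signal on, while receptors such as Cd72 carry an inhibitory motif that opposes it. In a healthy brain, microglia hold most of the transcripts of these genes, and macrophages at the brain's borders and infiltrating blood leukocytes express many of them too.

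Total counts ran from 261378 to 9840302 per library, with medians of 3603629, 4463016, 1457725 and 1428120 from 50 down to 0.5 ng. Levels are given as CPM, a gene's count relative to the total count of its library, with no correction for length. A floor of 3 counts, covering counting error only, corresponded to 0.305 to 11.5 CPM over the 32 libraries, and PCR reads without molecular identifiers are not independent molecules. Il6 was checked first, as the product of the transgene. Its counts added up to 52 in the GFAP-IL6 libraries and 2 in the WT libraries at 50 ng, and to 90 and 5 at 10 ng. At 1 ng the check went against the labels in replicate 3, where the library labelled WT had 10.4 CPM, the highest of its group, and the library labelled GFAP-IL6 had 0 counts. In all, 2 of the 4 GFAP-IL6 and 3 of the 4 WT libraries had 0 counts of Il6 at 1 ng. A 0 there thus does not set a library apart. At 0.5 ng all 8 libraries had 0 counts of Il6, so nothing was checked there. The microglia markers P2ry12 and Tmem119 were present in all libraries at 50 and 10 ng, and P2ry12 spanned 59.0 to 76.0 CPM in WT and 38.0 to 75.4 CPM in GFAP-IL6 at 50 ng. Summed over the 9 homeostatic microglia markers, the level was 335 to 393 CPM in WT and 361 to 583 CPM in GFAP-IL6 at 50 ng, and 306 to 378 against 399 to 599 CPM at 10 ng. In bulk RNA, more cells of a type and more RNA per cell cannot be told apart. Defining genes of lymphocytes were at or near 0. Cd3e had 0 counts in all 32 libraries, Cd79a had at most 1 count in any library, and Ms4a1 had at most 2. The wider lists were not at 0. At 50 ng, 8 T and NK cell markers added up to 1.87 to 3.19 CPM in GFAP-IL6 and 0 to 2.39 CPM in WT. The sum of 6 B cell markers reached 8.36 CPM in a GFAP-IL6 library at 1 ng and 8.49 CPM in a WT library at 0.5 ng. The monocyte gene Ccr2 added up to 17 counts in GFAP-IL6 and 7 in WT at 50 ng, and the summed level of 8 monocyte and neutrophil markers was 2.33 to 12.5 CPM against 1.67 to 3.18 CPM. At 10 ng these 8 markers were at 1.42 to 12.2 CPM in GFAP-IL6 and 3.03 to 9.87 CPM in WT. The part of such cells in the differences between genotypes was not tested. GFAP-IL6 replicate 4 stood apart from the other GFAP-IL6 libraries at 50 and 10 ng, and results are also given without it.

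The comparison of genotypes within an input used the edgeR quasi-likelihood test, with a gene called at a Benjamini-Hochberg adjusted p under 0.05 over all genes tested and an absolute log2 fold change above 1. At 50 ng, 5 of the 10 genes were called higher, where the same rule called 0.28% of the 11773 genes tested, and none of the 10 was called lower. At 10 ng, 2 of 10 were called higher (Trem2 and Fcgr3), against 0.249% of 12043 genes (0.266% in either direction). Tyrobp and Fcer1g also met the adjusted p there, which made 4 of 10 by that rule alone, against 0.299% of genes. The median log2 fold change of the 10 was 1.24 at 50 ng and 1.10 at 10 ng, beside a median over all genes tested of -0.003 and 0.003. At 50 ng every GFAP-IL6 library lay above every WT library for 5 of the 10 genes, and at 10 ng for 7 of the 10, where 2.17% and 2.77% of all tested genes separated in that direction. The genes were chosen with earlier results of these data known, so these counts describe them and are not independent evidence.

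**Figure D1:**
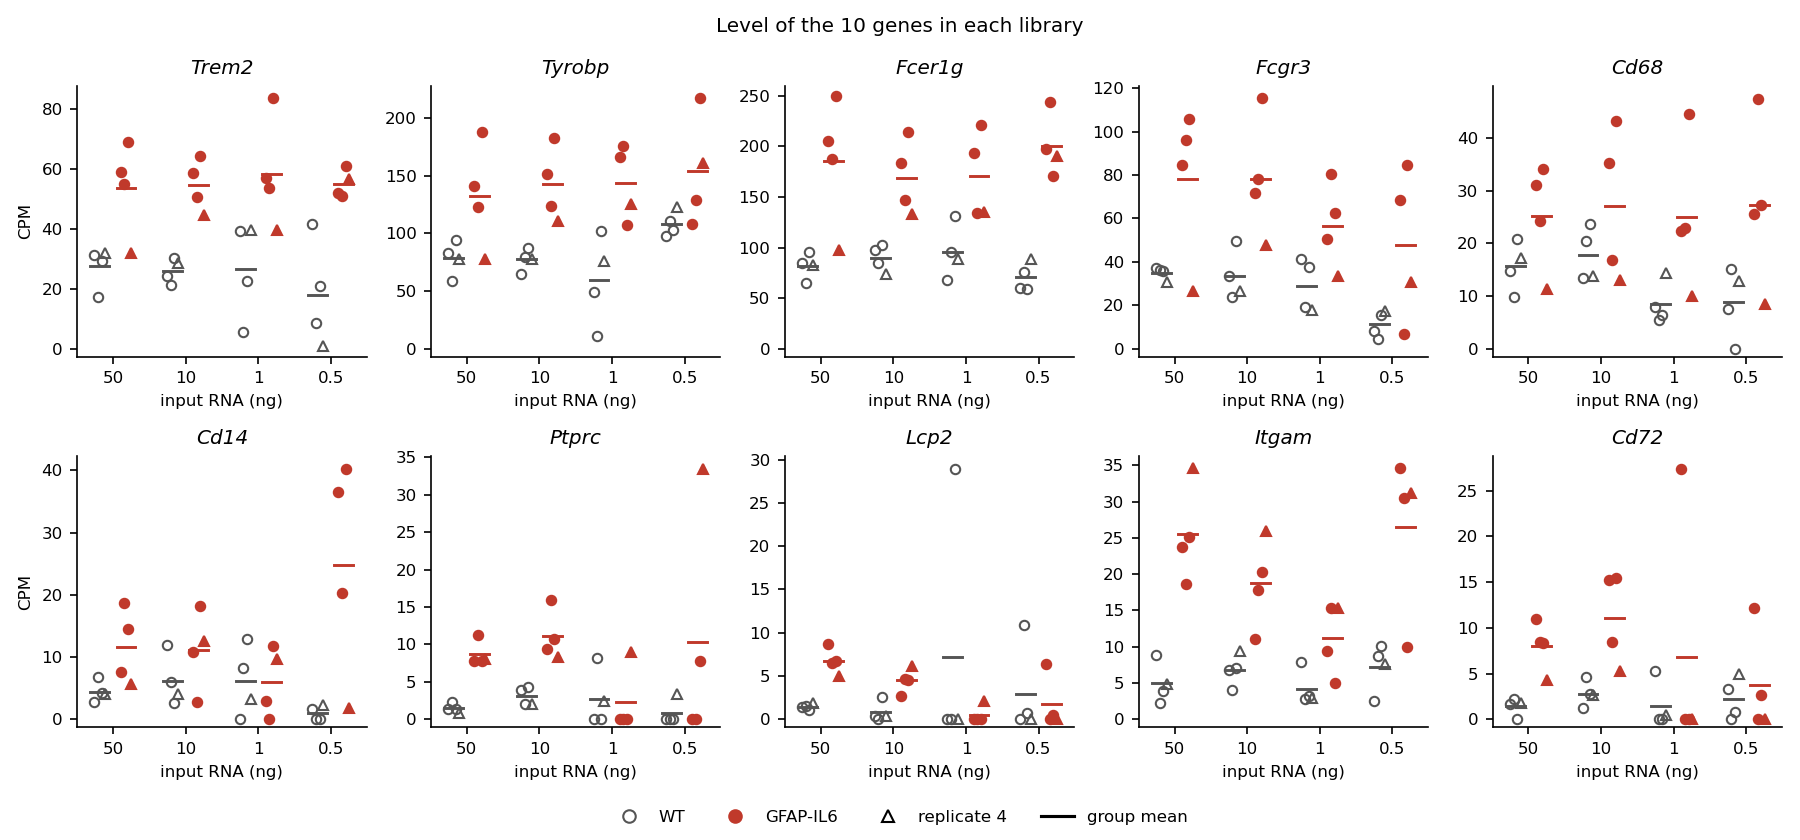
CPM of each of the 10 genes (1 panel each, vertical axis from 0) in every library, by input RNA in ng on the horizontal axis. Open grey symbols are WT, filled red symbols are GFAP-IL6, triangles are replicate 4 and bars are group means of 4 libraries. Fcer1g separates the genotypes at all 4 inputs, whereas Ptprc, Lcp2 and Cd72 have many libraries at 0 at 1 and 0.5 ng.

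To show what the genes have in common outside the measurements, their promoters were read from RefSeq (GRCm38.p6), each spanning 250 bases before and 50 after a gene start. Entries were found for 8 of the 10 genes, in 10 windows, and not for Tyrobp or Cd14. The letters GAGGAAG, a core bound by PU.1 and other ETS factors, were searched on both strands, so also as CTTCCTC. They occurred in the windows of 4 of the 8 genes (Fcgr3, Cd72, Itgam and Trem2), in 5 of 10 windows, and in 13.6% of the 32851 promoters searched. The windows of Fcgr3 overlap and hold the same match, and those of Ptprc overlap too, so the 10 windows are not independent. The letters TTCNNNGAA, the spaced half-sites of STAT factors, which act downstream of interleukin 6, occurred in none of the 10 windows and in 8.30% of all promoters. A match is a description of these letters and not a shown binding site, and a window without one says nothing of a factor. The windows of Trem2, Itgam, Cd72 and Fcer1g are printed as examples from the genes called at 50 or 10 ng. Fcgr3, which holds a match, and Ptprc and Lcp2, which hold none, were called too and are not printed. Of those printed, the first 3 hold a match (in capitals) and Fcer1g has none:
Trem2, chr17:48346151-48346450, plus strand: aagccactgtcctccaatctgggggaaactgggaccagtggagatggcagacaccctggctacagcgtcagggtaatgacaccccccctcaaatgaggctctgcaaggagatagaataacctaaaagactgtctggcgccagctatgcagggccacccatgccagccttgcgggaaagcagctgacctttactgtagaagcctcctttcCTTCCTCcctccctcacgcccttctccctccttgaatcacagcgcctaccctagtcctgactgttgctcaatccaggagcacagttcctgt
Itgam, chr7:128062390-128062689, plus strand: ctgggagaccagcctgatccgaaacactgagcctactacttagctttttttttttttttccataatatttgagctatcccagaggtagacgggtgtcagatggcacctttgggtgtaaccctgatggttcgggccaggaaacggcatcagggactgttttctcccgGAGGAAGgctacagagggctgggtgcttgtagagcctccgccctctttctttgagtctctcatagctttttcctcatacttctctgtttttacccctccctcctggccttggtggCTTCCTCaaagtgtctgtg
Cd72, chr4:43454577-43454876, minus strand: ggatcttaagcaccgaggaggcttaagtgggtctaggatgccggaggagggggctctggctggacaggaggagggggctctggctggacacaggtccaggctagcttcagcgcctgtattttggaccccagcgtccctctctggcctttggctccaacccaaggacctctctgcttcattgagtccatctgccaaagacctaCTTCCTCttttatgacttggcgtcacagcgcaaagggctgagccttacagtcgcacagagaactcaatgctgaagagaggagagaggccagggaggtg
Fcer1g, chr1:171234300-171234599, minus strand: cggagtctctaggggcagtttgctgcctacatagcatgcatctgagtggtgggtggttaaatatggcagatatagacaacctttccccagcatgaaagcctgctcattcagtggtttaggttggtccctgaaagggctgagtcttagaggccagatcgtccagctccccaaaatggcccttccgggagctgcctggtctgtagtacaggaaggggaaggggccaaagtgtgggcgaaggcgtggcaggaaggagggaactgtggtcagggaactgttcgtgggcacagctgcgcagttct

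Trem2 (ENSMUSG00000023992.12, GRCm38 chromosome 17, 48346401 to 48354147, plus strand, protein coding) encodes a receptor for lipids and apolipoproteins that signals through Tyrobp. At 50 ng, GFAP-IL6 replicates 1 to 4 had 59.1, 55.0, 68.9 and 32.1 CPM of Trem2, and WT replicates 31.3, 17.3, 29.2 and 32.1 CPM. Of the GFAP-IL6 libraries, 3 lay above the WT range, while replicate 4 lay level with the highest WT library. The log2 fold change was 0.88 ± 0.234 (SE), which did not pass (edgeR, adjusted p = 0.207). With 10 ng the values were 58.6, 50.7, 64.3 and 44.6 CPM against 24.3, 21.1, 30.3 and 28.5 CPM, without overlap. There Trem2 was called, with a log2 fold change of 1.02 ± 0.204 (edgeR, adjusted p = 0.00773). The call was lost in 4 of 8 fits lacking a library (WT replicate 1 or 2, GFAP-IL6 replicate 1 or 3), with log2 fold changes from 0.95 to 1.11 over the 8. Of its promoter matches, the single CTTCCTC printed above begins 41 bases before the start.

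Tyrobp (ENSMUSG00000030579.9, chromosome 7, 30413760 to 30417585, plus strand, protein coding) is the adaptor of Trem2 and of several other receptors. The GFAP-IL6 libraries at 50 ng held 141, 123, 187 and 77.8 CPM, and the WT libraries 83.0, 58.7, 94.3 and 78.0 CPM. Replicate 4 was again the only GFAP-IL6 library inside the WT range. Its log2 fold change of 0.70 ± 0.215 did not pass (edgeR, adjusted p = 0.445). At 10 ng the GFAP-IL6 libraries had 152, 124, 183 and 111 CPM and the WT libraries 65.0, 79.3, 87.4 and 77.9 CPM, so the groups were apart. The adjusted p was met there (edgeR, 0.00420), with a log2 fold change of 0.85 ± 0.163, under the fold threshold. The 3' end of Tyrobp lies 127 bases from that of Hcst on the opposite strand, and Hcst itself had a mean of 4.04 CPM in GFAP-IL6 and 2.19 CPM in WT at 50 ng.

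Fcer1g (ENSMUSG00000058715.9, chromosome 1, 171229572 to 171234365, minus strand, protein coding) is the other ITAM adaptor, shared by activating Fc receptors. At 50 ng it had 206, 188, 250 and 97.7 CPM in GFAP-IL6 and 84.4, 64.7, 95.7 and 82.4 CPM in WT. All GFAP-IL6 libraries lay above all WT libraries, replicate 4 by a small margin. Fcer1g rose with a log2 fold change of 1.13 ± 0.219 (edgeR, adjusted p = 0.0208). At 10 ng, 183, 147, 214 and 133 CPM stood against 97.9, 84.5, 103 and 74.1 CPM, a log2 fold change of 0.89 ± 0.159 that met the adjusted p (edgeR, 0.00165) and not the fold threshold. Fcer1g was the only one of the 10 genes whose groups were apart at all 4 inputs. When single libraries were left out at 50 ng, the call held without WT replicate 3 or GFAP-IL6 replicate 4 and was lost in the other 6 fits, with edgeR adjusted p-values up to 0.157.

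Fcgr3 (ENSMUSG00000059498.11, chromosome 1, 171051174 to 171064935, minus strand, protein coding) encodes an activating receptor for IgG that needs Fcer1g. Its levels at 50 ng were 84.6, 96.1, 106 and 26.7 CPM in GFAP-IL6 and 37.1, 36.1, 35.6 and 30.5 CPM in WT. The first 3 GFAP-IL6 libraries were far above WT and replicate 4 was below every WT library. With a log2 fold change of 1.11 ± 0.285 the gene was not called (edgeR, adjusted p = 0.165). At 10 ng it was at 71.6, 78.0, 115 and 47.7 CPM against 33.5, 23.8, 49.8 and 26.6 CPM, and a log2 fold change of 1.18 ± 0.223 passed (edgeR, adjusted p = 0.00358), although replicate 4 lay inside the WT range. That call was lost in 1 of 8 fits lacking a library, without GFAP-IL6 replicate 3 (log2 fold change 0.94). Fcgr2b and Fcgr4 are related genes, and reads shared between such copies would not be counted as unique, which leaves the counts of all of them uncertain.

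Cd14 (ENSMUSG00000051439.6, chromosome 18, minus strand, protein coding) encodes a co-receptor that hands lipopolysaccharide to TLR4. It spanned 5.74 to 18.7 CPM in GFAP-IL6 and 2.77 to 6.77 CPM in WT at 50 ng, with 3 of 4 GFAP-IL6 libraries above the WT range and a log2 fold change of 1.35 ± 0.401 that did not pass (edgeR, adjusted p = 0.404). With 10 ng the ranges were 2.82 to 18.2 CPM and 2.53 to 11.9 CPM, with 2 of 4 GFAP-IL6 libraries above the WT range and a log2 fold change of 0.91 ± 0.441 (edgeR, adjusted p = 0.656).

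Ptprc (ENSMUSG00000026395.14, chromosome 1, 138062861 to 138175708, minus strand, protein coding) is the leukocyte surface phosphatase CD45, which sets the activity of Src family kinases. In GFAP-IL6 at 50 ng it had 7.82, 11.2, 7.84 and 8.06 CPM, and in WT 1.38, 2.26, 1.39 and 0.796 CPM. The groups were wide apart and replicate 4 was among the others. The gene rose with a log2 fold change of 2.69 ± 0.424 (edgeR, adjusted p = 0.00227), and the call was lost in 1 of 8 fits, that without WT replicate 4 (adjusted p = 0.0642). At 10 ng, 9.35, 15.97, 10.7 and 8.33 CPM stood against 3.91, 1.98, 4.29 and 2.02 CPM. These too did not overlap, and the log2 fold change of 1.76 ± 0.461 did not pass (edgeR, adjusted p = 0.103).

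Lcp2 (ENSMUSG00000002699.10, chromosome 11, 34046920 to 34092295, plus strand, protein coding) is a scaffold that kinases of the Syk family phosphorylate. Its levels at 50 ng were 8.69, 6.53, 6.69 and 5.02 CPM in GFAP-IL6 and 1.38, 1.504, 1.11 and 1.86 CPM in WT, with no overlap. Lcp2 rose with a log2 fold change of 2.09 ± 0.416 (edgeR, adjusted p = 0.0235), and among fits lacking a library the call held without GFAP-IL6 replicate 4 and was lost in the other 7 (adjusted p up to 0.151). At 10 ng the GFAP-IL6 libraries had 2.71, 4.70, 4.56 and 6.10 CPM, and the WT libraries 0.411, 0, 2.53 and 0.356 CPM, where 0 counts allow up to 1.98 CPM. The groups were apart by a narrow margin, set by WT replicate 3, and the log2 fold change of 2.37 ± 0.725 did not pass (edgeR, adjusted p = 0.287). Lcp2 shares 282 exonic bases at its 3' end with 4930469K13Rik on the other strand, a gene not analysed here.

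Itgam (ENSMUSG00000030786.16, chromosome 7, 128062640 to 128118491, plus strand, protein coding) is the alpha chain of complement receptor CR3 and the CD11b antigen by which myeloid cells are sorted. At 50 ng it was at 23.8, 18.7, 25.1 and 34.6 CPM in GFAP-IL6 and at 8.86, 2.26, 3.896 and 4.91 CPM in WT. The lowest GFAP-IL6 library was above the highest WT library, and replicate 4 was the highest of all. Itgam had the smallest adjusted p of the 10 genes, with a log2 fold change of 2.26 ± 0.313 (edgeR, adjusted p = 0.000614), and was called in 8 of 8 fits lacking a library. With 10 ng the levels were 11.1, 17.8, 20.2 and 26.0 CPM against 6.79, 3.96, 7.07 and 9.39 CPM. They remained apart, with a log2 fold change of 1.38 ± 0.335 that missed the threshold (edgeR, adjusted p = 0.0606). Of its promoter matches, GAGGAAG begins 84 bases before the start and CTTCCTC 31 bases after it. Itgam shares 3450 exonic bases on its own strand with Gm49368, a gene model not analysed here.

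Cd72 (ENSMUSG00000028459.9, chromosome 4, 43446462 to 43454628, minus strand, protein coding) is a lectin receptor with an inhibitory motif, best known from B cells. Its levels at 50 ng were 11.01, 8.40, 8.30 and 4.30 CPM in GFAP-IL6 and 1.66, 2.26, 0 and 1.72 CPM in WT, where the 0 counts of replicate 3 allow up to 0.835 CPM. The groups were apart, and the B cell genes Cd79a and Ms4a1 held at most 1 count in any of these 8 libraries. The full list of 6 B cell markers added up to 0 to 1.74 CPM in GFAP-IL6 and 0 to 1.95 CPM in WT. Its highest GFAP-IL6 sum was in replicate 1, which also had the most Cd72. The part of B cells in the Cd72 level was not tested. Cd72 rose with a log2 fold change of 2.48 ± 0.530 (edgeR, adjusted p = 0.0417), and of the fits lacking a library only that without GFAP-IL6 replicate 4 kept the call (adjusted p up to 0.186 in the other 7). At 10 ng, 15.3, 8.45, 15.5 and 5.28 CPM stood against 1.23, 4.62, 2.78 and 2.61 CPM, again apart, with a log2 fold change of 2.07 ± 0.493 just short of the threshold (edgeR, adjusted p = 0.0514). Cd72 shares 1423 exonic bases, its 3' end included, with Tesk1 on the opposite strand, and the strand setting of the counting was not stated, which makes its count uncertain. Tesk1 itself was at 36.2 to 57.2 CPM in GFAP-IL6 and 41.2 to 52.5 CPM in WT, a log2 fold change of 0.01 ± 0.194 (edgeR, adjusted p = 0.994).

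Cd68 (ENSMUSG00000018774.11, chromosome 11, 69664213 to 69666153, minus strand, protein coding) encodes a lysosomal glycoprotein of phagocytes. It was at 31.0, 24.3, 34.1 and 11.3 CPM in GFAP-IL6 and at 14.7, 9.78, 20.9 and 17.1 CPM in WT at 50 ng. Replicate 4 lay inside the WT range and the others above it. The log2 fold change was 0.60 ± 0.294 (edgeR, adjusted p = 0.835). At 10 ng it was 0.62 ± 0.303 (edgeR, adjusted p = 0.656), with 13.01 to 43.2 CPM in GFAP-IL6 against 13.4 to 23.7 CPM in WT. These were the smallest fold changes of the 10 genes at either amount.

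**Figure D2:**
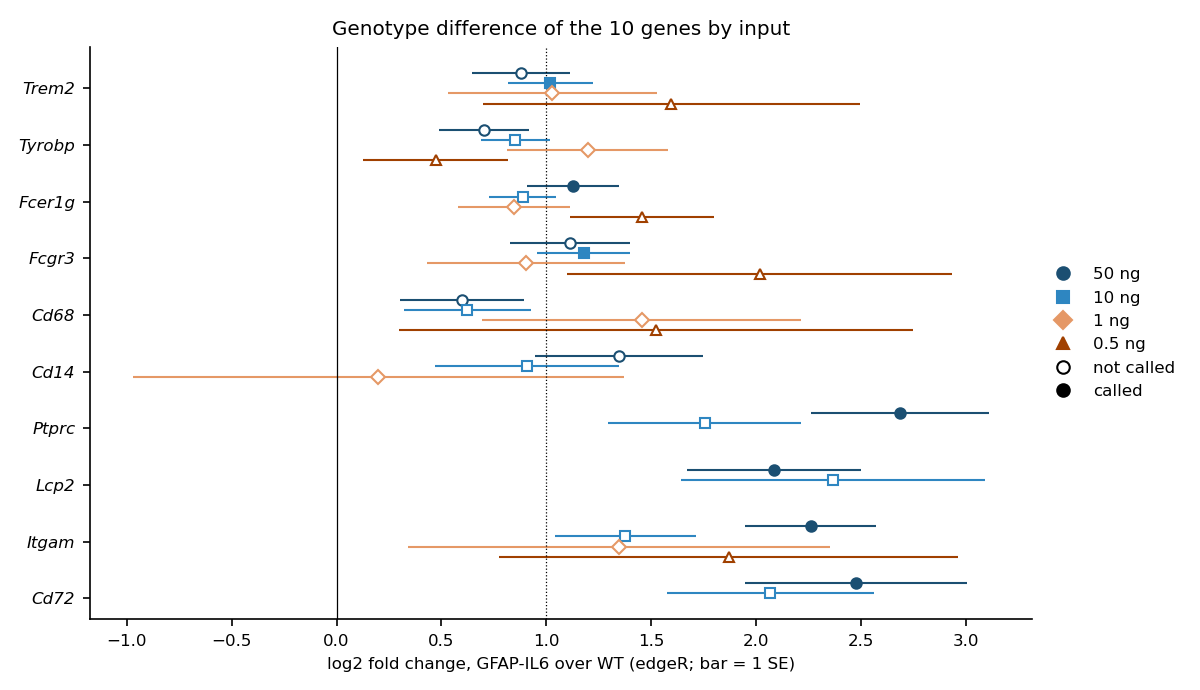
Log2 fold change of GFAP-IL6 over WT (horizontal axis, edgeR) for each of the 10 genes (vertical axis) and input amount (symbol and colour), with a bar of 1 SE to each side. Filled symbols passed both thresholds, the dotted line marks a log2 fold change of 1 and genes with too few counts to be tested have no symbol. All plotted estimates are above 0, and only symbols at 50 and 10 ng are filled.

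A single GFAP-IL6 library stood apart from the others, a comparison chosen after its values were seen. At 50 ng, replicate 4 was the lowest of its group for 8 of the 10 genes, between the others for Ptprc and the highest for Itgam. At 10 ng it was the lowest for 7 genes and the highest for Lcp2 and Itgam. Relative to the mean of the other 3 libraries at 50 ng, its log2 ratio was -1.84 for Fcgr3, -1.40 for Cd68, -1.13 for Fcer1g and 0.62 for Itgam. At 10 ng the same genes gave -0.89, -1.29, -0.45 and 0.67. Cd68 was lowest in replicate 4 at all 4 inputs, and Trem2 and Fcgr3 at 3 of 4, while Itgam was highest in it at 3 of 4. The same library was the deepest of its group, and its 5 astrocyte markers added up to 3244 CPM at 50 ng, against 1415 to 1630 CPM in the other GFAP-IL6 libraries and 1334 to 1424 CPM in WT. Its homeostatic microglia markers were at 361 CPM at 50 ng, the lowest of its group. At the other inputs they were not the lowest, with 405 CPM at 10 ng against 399 CPM in replicate 2. The part of these differences in the results was not tested. Without it, 8 of the 10 genes were called at 50 ng, with Trem2, Fcgr3 and Cd14 added (edgeR, adjusted p = 0.000222, 8.30e-08 and 0.0242), and the share of all 11934 genes tested that were called higher in that fit was 0.494%, against 0.28% with it. At 10 ng, 3 genes were then called, with Cd72 added (edgeR, adjusted p = 0.0242), beside 0.23% of 12157 genes.

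**Figure D3:**
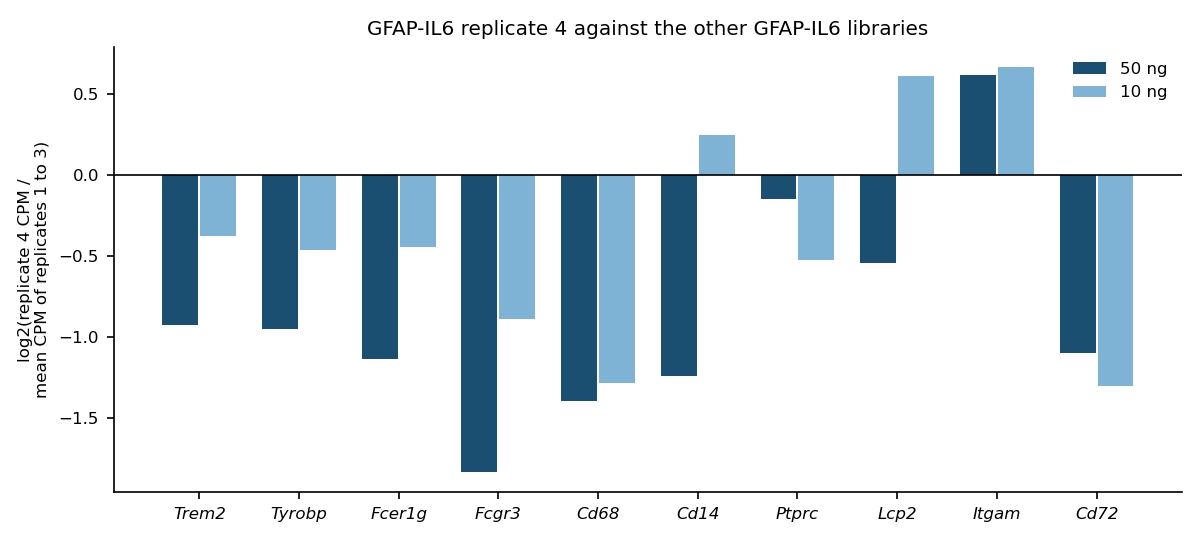
Log2 ratio of the CPM in GFAP-IL6 replicate 4 to the mean CPM of GFAP-IL6 replicates 1 to 3 (vertical axis) for each of the 10 genes at 50 ng (dark bars) and 10 ng (light bars), with no error since each bar is a single library. Bars below 0 outnumber those above it, and Itgam is above 0 at both amounts.

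At 1 and 0.5 ng the genes with few counts were read in some libraries and not in others. None of the 10 was called at 1 ng, where the rule called 0.0323% of 9276 genes, nor at 0.5 ng, with 0.0117% of 8571 genes. At 1 ng 7 genes had enough counts for the edgeR test (not Ptprc, Lcp2 or Cd72) and at 0.5 ng 6 had (not Cd14 either). Unadjusted p-values under 0.05 were found for Tyrobp and Fcer1g at 1 ng (0.00516 and 0.00448, edgeR) and for Fcer1g and Fcgr3 at 0.5 ng (0.000458 and 0.0410, edgeR). DESeq2, run as an alternative, called none at 1 ng and 1, Fcer1g, at 0.5 ng, beside 0.119% and 0.149% of genes called higher. Every tested gene had a log2 fold change above 0 at both amounts, from 0.20 to 1.45 at 1 ng and from 0.47 to 2.02 at 0.5 ng. Fcer1g was at 194, 134, 221 and 135 CPM in GFAP-IL6 and 67.4, 95.5, 131 and 88.7 CPM in WT at 1 ng, and at 197, 244, 170 and 191 CPM against 59.9, 75.9, 59.4 and 88.2 CPM at 0.5 ng. Its groups thus stayed apart down to the smallest input. Tyrobp also separated at 1 ng and Trem2 at 0.5 ng, so that 2 of 10 genes did at either amount, beside 1.68% and 1.47% of genes tested (1.33% and 1.12% of genes with a count). A further fit at 1 ng left out replicate 3 of either genotype, where Il6 was read in the WT library and not in the GFAP-IL6 library. None was called, and Tyrobp and Fcer1g had log2 fold changes of 1.65 and 0.89.

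Zero counts were tallied next. Of the 80 values of the 10 genes, 1 was 0 at 50 ng and 1 at 10 ng, but 18 were 0 at 1 ng and 15 at 0.5 ng. A level as at 50 ng would have given more than 3 counts in 9 of those 18 and in 6 of those 15. Ptprc had 0 counts in GFAP-IL6 replicates 1 and 3 at 1 ng, where its 50 ng level would have given 12.1 and 15.7 counts. Cd72 had 0 counts in GFAP-IL6 replicates 3 and 4 at 1 ng, where 14.4 and 22.4 would have been given. Lcp2 had 36 counts (28.9 CPM) in the library labelled WT replicate 3 at 1 ng and 0 in the other 3 WT libraries. Several means at 1 ng rest on single libraries, and 3 genes did not have a higher mean in GFAP-IL6 there, Cd14 (6.06 against 6.08 CPM), Ptprc (2.23 against 2.66 CPM) and Lcp2 (0.536 against 7.23 CPM), all with ranges that overlapped. At 0.5 ng Lcp2 alone had a lower mean in GFAP-IL6 (1.73 against 2.90 CPM), again with overlap. The median coefficient of variation of the 10 genes was 34.4% in GFAP-IL6 and 27.4% in WT at 50 ng, 31.9% and 33.7% at 10 ng, 51.1% and 63.2% at 1 ng, and 64.8% and 87.4% at 0.5 ng.

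Taken as a sum over the 10 genes, the level was 535 ± 169 CPM in GFAP-IL6 and 252 ± 36.2 CPM in WT at 50 ng (SD, n = 4). At 10 ng it was 528 ± 122 and 264 ± 33.5 CPM. At 1 ng it was 482 ± 71.8 and 241 ± 78.7 CPM, and at 0.5 ng 552 ± 48.1 and 232 ± 21.7 CPM. Every GFAP-IL6 library had a higher sum than every WT library at the same input. The sum is mostly set by Fcer1g and Tyrobp, with means of 185 and 132 CPM in GFAP-IL6 at 50 ng. It says little of the genes with few counts. Whether the genotype difference of a gene varied with the input was tested as an interaction in a single edgeR fit of all 32 libraries (12164 genes). This fit took the libraries as independent. Yet at each of 10, 1 and 0.5 ng, 4 of 4 WT and 3 of 4 GFAP-IL6 libraries correlated best with their own number at 50 ng. Same-numbered libraries may share RNA, which the labels do not state and these matches cannot tell. Between genotypes, GFAP-IL6 libraries also matched the WT library of their own number best. This held for 3 of 4 at 50 ng, 4 of 4 at 10 and 1 ng and 1 of 4 at 0.5 ng. None of the 10 genes passed the interaction test at 10, 1 or 0.5 ng against 50 ng, where 0%, 0% and 0.197% of genes did. The smallest unadjusted p were 0.0125 for Lcp2 at 1 ng and 0.0448 for Cd14 at 0.5 ng (edgeR, adjusted p = 0.9999 and 0.448), and they were the only ones under 0.05. The SE of these differences was 0.339 to 1.69 at 10 ng. The level itself, averaged over genotypes, differed by the 2 thresholds in none of the 10 genes between 50 ng and 10, 1 or 0.5 ng, beside 0%, 0.255% and 4.34% of all genes. Of the unadjusted p-values, only that of Fcgr3 at 0.5 ng was under 0.05 (0.00409). Its level was lower by a log2 fold change of -0.995 ± 0.327 (edgeR, adjusted p = 0.0568).

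Counts were also summed over the 4 inputs by genotype and replicate number, which gave 8 sums of 2692810 to 21033100 counts. In the edgeR test of these sums 7 of the 10 genes were called higher, beside 0.387% of 13450 genes (0.394% in either direction). These were Trem2, Fcer1g, Fcgr3, Cd14, Ptprc, Itgam and Cd72, with log2 fold changes of 1.06, 1.04, 1.19, 1.38, 2.08, 1.77 and 2.03. Tyrobp met the adjusted p alone (edgeR, 0.00379) at 0.79 ± 0.144. Cd68 and Lcp2 did not pass (edgeR, adjusted p = 0.362 and 0.623), and Lcp2 was at 5.05 CPM in WT replicate 3, above all 4 GFAP-IL6 sums (4.05 to 4.87 CPM). Without GFAP-IL6 replicate 1 or replicate 3, 4 genes were called. With 50 and 10 ng alone summed, 5 genes were called, Fcgr3, Ptprc, Lcp2, Itgam and Cd72. The share of all genes called was not taken in these further fits, so their counts have no share beside them.

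The balance between receptors and adaptors was compared as the log2 ratio of CPM within each library, for 3 pairs at 50 and 10 ng that were chosen after the values were seen. Trem2 relative to Tyrobp was higher in GFAP-IL6 by 0.25 at 50 ng and 0.21 at 10 ng, which did not pass (exact permutation tests, two-sided, p = 0.143 and 0.114). Fcgr3 relative to Fcer1g differed by -0.12 and 0.32 (exact permutation tests, p = 0.686 and 0.171). Tyrobp relative to Fcer1g was -0.07 ± 0.0564 in WT and -0.47 ± 0.125 in GFAP-IL6 at 50 ng (SD, n = 4, exact permutation test, p = 0.0286, the smallest that 4 against 4 allows, and 0.171 after adjustment over the 6 comparisons). At 10 ng it was -0.21 ± 0.282 and -0.25 ± 0.0202 (exact permutation test, p = 0.8286). No ratio passed after adjustment, where the smallest adjusted p was 0.171 (exact permutation tests, Benjamini-Hochberg).

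Other genes of these pathways were taken from 6 lists. Of 16 kinases and effectors below ITAM receptors, 5 had enough counts at 50 ng, and all 5 had a log2 fold change above 0, with a median of 1.19. At 10 ng 7 of 7 were above 0, with a median of 1.13. Lyn, a Src family kinase that phosphorylates ITAMs, was the only one called, at 50 ng, where it rose to 10.01 ± 2.33 CPM in GFAP-IL6 over 2.56 ± 0.459 CPM in WT (mean ± SD of 4 libraries). Its log2 fold change was 1.89 ± 0.364 (edgeR, adjusted p = 0.0208). At 10 ng Lyn had 6.87 ± 2.90 against 3.10 ± 2.68 CPM, which did not pass (edgeR, adjusted p = 0.634). Of 14 further Fc and TREM family genes, 5 were tested at each amount, with medians of 0.87 and 1.78 and 4 of 5 above 0. Fcgr2b, the inhibitory IgG receptor, was called at both amounts and rose from 9.42 ± 2.18 to 36.8 ± 11.7 CPM at 50 ng (log2 fold change 1.93 ± 0.279, edgeR, adjusted p = 0.00102) and from 11.2 ± 3.83 to 37.0 ± 13.2 CPM at 10 ng (log2 fold change 1.78, edgeR, adjusted p = 0.000229). Fcgr1 and Fcgr4, activating IgG receptors, rose at 10 ng from 1.37 to 9.39 CPM and from 0.761 to 8.48 CPM (edgeR, adjusted p = 0.0306 and 0.00900). Of 10 microglia state genes, 7 and 8 were tested at 50 and 10 ng, with medians of 0.26 and 0.75. Cst7 and Cd52 were called at 10 ng, at 7.87 against 0.178 CPM and 27.1 against 8.70 CPM (edgeR, adjusted p = 0.000123 and 0.00165). Cst7 encodes a cystatin, an inhibitor of lysosomal proteases, and its WT mean rests on few counts. None was called among 8 beta2 integrin and adhesion genes (5 tested at either amount, medians 0.80 and 0.52), 13 CD14 and TLR genes (1 and 4 tested, medians 0.60 and 0.56) or 11 inhibitory receptors and phosphatases (6 tested, medians 0.28 and 0.50). In all, 2 pathway genes were called at 50 ng and 5 at 10 ng, each higher, beside 0.28% and 0.249% of all genes tested. None was called at 1 or 0.5 ng, beside 0.0323% and 0.0117%. The 9 homeostatic microglia markers had a median log2 fold change of 0.45 at 50 ng and 0.47 at 10 ng, with 8 of 9 above 0 and none called, beside medians of 1.24 and 1.10 for the 10 genes.

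**Figure D4:**
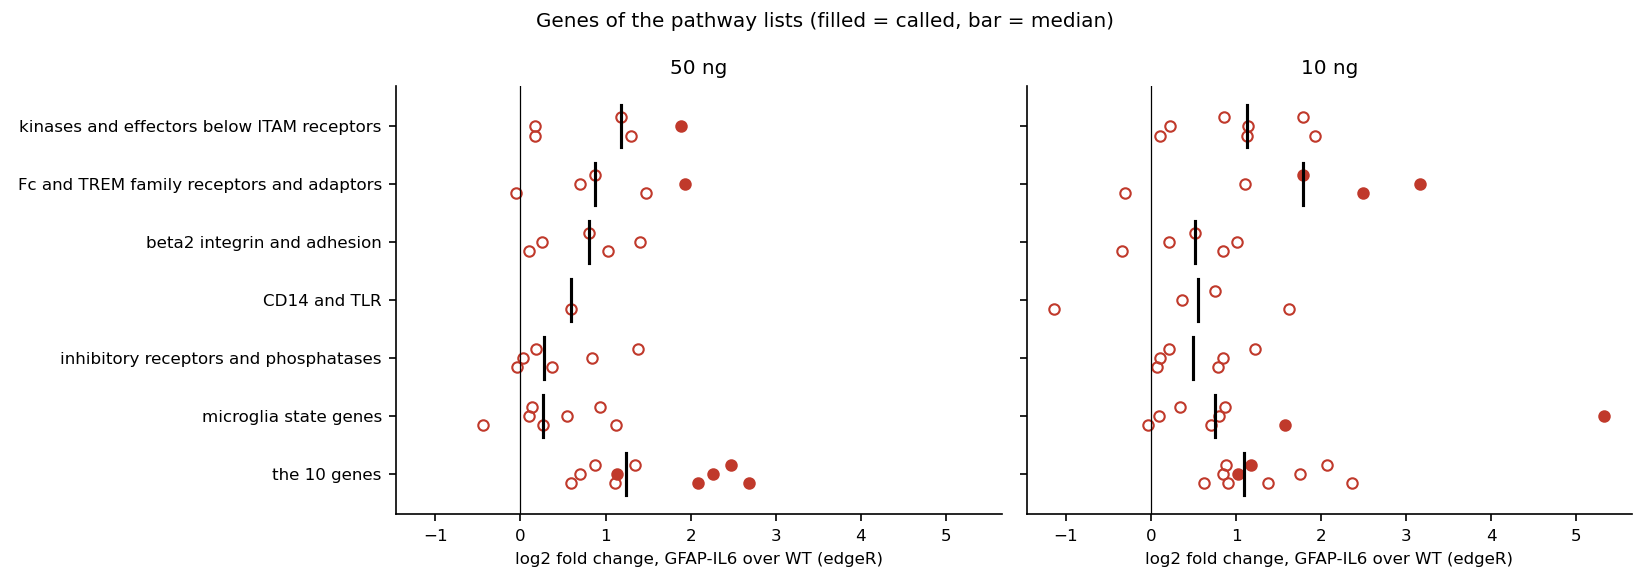
Log2 fold change of GFAP-IL6 over WT (horizontal axis, edgeR) of each tested gene in the 6 pathway lists and of the 10 genes (rows), at 50 ng on the left and 10 ng on the right. Each circle is a gene, filled where it was called, with vertical bars at the medians. Filled circles lie in the rows of Lyn and Fcgr2b at 50 ng, of 3 Fc receptor genes, Cst7 and Cd52 at 10 ng, and of the 10 genes at both.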

How the data were processed

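Counts per gene were deposited by the authors as whole numbers, not normalized. They trimmed poly(A) from single-end reads, aligned them to the mouse assembly with STAR (version 2.4 in the submitters' processing notes) and counted uniquely aligned reads on a GENCODE annotation with featureCounts. The strand setting was not stated, and the build in the submitters' notes is a human one although all gene identifiers are of mouse. Here, CPM was computed from library totals. Genotypes were compared per input (4 against 4) with edgeR 4.0.16 in R 4.3.3, using TMM, filterByExpr and the quasi-likelihood test, tested on simulated data. Alternatives were DESeq2 1.42.0, other size factors, no low-count filter, a replicate block, thinning, a fit of all libraries, limma 3.58.1 voom and leaving out libraries. The fit at 1 ng without replicate 3 was chosen after seeing the data. The 10 genes, the lists and the named genes (list genes called at 50 or 10 ng) were chosen with earlier results of these data known. Replicate libraries differed beyond counting noise, so each counted once. Coordinates are GENCODE, GRCm38. Plots used matplotlib 3.10.9.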

Additional observations from a re-analysis of the deposited data

Results flagged for a closer look

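Within groups of 4 libraries, a value was set apart when its gap to the nearest other value exceeded Dixon's limit. This held for 12 of 80 groups of the 10 genes, all in Ptprc, Lcp2, Itgam and Cd72. The limit is set for a share of 0.05 in normally spread values, which groups with counts at 0 are not. Where 3 libraries are at 0, any count in the other passes the limit. The 12 can therefore not be set against that share. For Ptprc they were GFAP-IL6 replicate 2 at 50 ng (11.2 CPM), GFAP-IL6 replicate 4 at 1 ng (8.93 CPM, the others at 0) and WT replicate 4 at 0.5 ng (3.42 CPM, the others at 0). For Lcp2 they were WT replicate 3 at 10 ng (2.53 CPM), the library labelled WT replicate 3 at 1 ng (28.9 CPM), GFAP-IL6 replicate 4 at 1 ng (2.14 CPM), and at 0.5 ng GFAP-IL6 replicate 1 (6.41 CPM) and WT replicate 2 (10.8 CPM). For Itgam they were WT replicate 1 at 1 ng (7.86 CPM) and GFAP-IL6 replicate 3 at 0.5 ng, the single low value (9.93 CPM against 30.5 to 34.6 CPM). For Cd72 both were at 1 ng, GFAP-IL6 replicate 1 (27.4 CPM, the others at 0) and WT replicate 1 (5.24 CPM). Of the 12 values, 10 were at 1 or 0.5 ng.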

How the results depend on the processing

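Over the alternatives the genotype difference of the 10 genes kept its direction at 50 and 10 ng in each fit that tested the gene, and the number called varied. At 50 ng, where 5 were called, thinning to the lowest total gave 2 and the fit of all 32 libraries 0, and leaving out a library gave 1 to 8. Of all genes, these fits called 0.211%, 0.0247% and 0.0917% to 0.494% higher. Thinning left Cd14, Ptprc, Lcp2 and Cd72 with too few counts to be tested at 50 ng, and Ptprc, Lcp2 and Cd72 at 10 ng. At 10 ng, where 2 were called, DESeq2 gave 5, no filter 4, the adjusted p alone 4, the fit of all libraries 0 and leaving out a library 0 (without GFAP-IL6 replicate 3) to 3. DESeq2 called 0.27% of all genes higher there, no filter 0.223% and the fit of all libraries 0.0329%. Leaving out a library gave 0.186% to 0.264%. At 0.5 ng DESeq2 called 1 and the fit of all libraries 3, where they called 0.149% and 2.92% of all genes higher. The edgeR fit within 0.5 ng called 0.0117%. Leaving out a library there gave 0 of the 10 genes in each fit. For the sums over inputs, leaving out a library gave 4 to 8, with no share of all genes taken. Among pathway genes at 50 ng, DESeq2 called 4, no filter 7, the fit of all libraries 0 and leaving out a library 1 to 7. Of all genes, DESeq2 called 0.303% higher there and no filter 0.412%, with the other shares as above. At 10 ng the fit of all libraries called 0 pathway genes, thinning 1 and leaving out a library 3 to 5. Thinning called 0.224% of all genes higher there, with the other shares as above. At 0.5 ng the fit of all libraries called 3 pathway genes, beside 2.92% of all genes called higher. Between 0.5 and 50 ng no filter called 1 of the 10 genes, and leaving out a library 0 to 1 (without WT or GFAP-IL6 replicate 4), Fcgr3 in each case. Thinning leaves fewer counts, and the fit of all libraries shares 1 estimate of spread (biological coefficient of variation 0.526, against 0.214 and 0.238 within 50 and 10 ng). For the other settings the cause was not tested. Cd14 at 1 ng (0.20) ranged from -0.27 to 0.93 when a library was left out and reversed to -0.27, -0.04, -0.22 and -0.12 (log2) without WT replicate 1, WT replicate 4, GFAP-IL6 replicate 3 and GFAP-IL6 replicate 4. With a replicate block, 4 genes were called at 10 ng (Trem2, Fcgr3, Itgam and Cd72), 5 at 50 ng and 1 between 0.5 and 50 ng. The block called 0.308% of all genes higher at 10 ng and 0.303% at 50 ng. The labels do not state whether the numbers pair the genotypes. Between WT and GFAP-IL6 libraries with 1 number, deviations from the group means correlated across genes at 0.0361 to 0.189 at 50 ng and 0.0390 to 0.131 at 10 ng, and 3 and 4 of 4 GFAP-IL6 libraries correlated best with their own number. At 1 ng 4 of 4 did and at 0.5 ng 1 of 4. In the shallowest library 3 counts reach 11.5 CPM, so lower levels of Ptprc, Lcp2 and Cd72 cannot be read there. Cd72 also had 0 counts in GFAP-IL6 replicate 4 at 1 ng, where 3 counts are 1.07 CPM. The part of depth in the zero counts was not tested.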

Other observations

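The genes whose pattern over the 8 groups was most like that of the 10 genes were found by distance between centred group means of log2(CPM + 1), among 10437 genes with a mean of at least 5 CPM. The 5 nearest were Dgka, Trank1, Zcchc7, Eaf1 and Ctsh, at distances of 0.710, 0.737, 0.790, 0.824 and 0.836. Dgka encodes a diacylglycerol kinase and Ctsh a lysosomal protease. The 10 genes themselves lay 0.943 to 1.80 from their own mean profile, farther than these 5. Nothing was tested on this ranking.

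The summed level of 4 endothelial markers was 32.7 to 81.7 CPM in GFAP-IL6 and 17.99 to 25.2 CPM in WT at 50 ng, and 27.8 to 62.0 against 16.4 to 29.2 CPM at 10 ng, with none of the 2 tested markers called at either amount. Markers of border macrophages did not separate the genotypes, with 9.56 to 18.7 CPM in GFAP-IL6 and 11.8 to 18.1 CPM in WT at 50 ng.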
